A study of Mus musculus with 23 samples.

Results

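The genes described here encode the nuclear-coded subunits of the mitochondrial respiratory chain and of the ATP synthase. They were taken by symbol: those that begin with Nduf followed by a, b, c, s or v (complex I), Sdha to Sdhd (complex II) and those beginning with Uqcr (complex III). For complex IV the symbol begins with Cox, a digit from 4 to 8 and a, b or c, which leaves out Cox4i1 and Cox4i2. Those of complex V begin with Atp5. The probe annotation held 91 such symbols, and 82 of them had a probe set that names no other gene, out of 12393 genes with such a probe set. The other 9 symbols shared every probe set with a second symbol and were not analysed here. By class, 34 of the 82 carried a complex I symbol, 5 were complex I assembly factors, 4 belonged to complex II, 8 to complex III, 14 to complex IV and 17 to complex V. The rule also takes in Ndufa4, whose product is known as a complex IV subunit despite its name, Cox7a2l, whose product helps join complexes into supercomplexes, and Cox6b2 and Cox8c, known as testis isoforms.

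Complexes I to IV pass electrons from NADH and succinate to oxygen. Complexes I, III and IV pump protons out of the mitochondrial matrix, and complex V uses the returning protons to make ATP. Contracting muscle depends on this supply, and mature fibers are rich in mitochondria. Complex IV has small regulatory subunits that exist as a heart and skeletal muscle isoform and as an isoform found in most tissues: Cox6a2 against Cox6a1, Cox7a1 against Cox7a2, and Cox8b against Cox8a.

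RNA from mouse gastrocnemius muscle was hybridised to 23 Affymetrix arrays. There were 3 genotypes: control mice, whose array titles tie them to the lamin A line, emerin knockouts and lamin A/C knockouts. Muscle was taken on day 0, 3 or 4 in relation to an injection whose agent the labels do not name. On day 0 the control and emerin knockout muscles are labelled non-injected, while the lamin A/C knockout muscles carry a post-injection label at that time. The control group had 2 arrays on each day; 1 of the day 4 arrays was placed there by its title, since its description does not name the genotype. The emerin knockout had 2, 3 and 3 arrays on days 0, 3 and 4, and the lamin A/C knockout had 3 on each day. Age, strain and the form of the alleles are not given, both knockouts were compared with the same 6 control arrays, and nothing in the labels says that arrays of a group came from separate animals, so that the p-values rest on differences among arrays that may be technical.

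The labels were checked against the targeted genes. Lmna, which encodes lamins A and C, gave signals of 53.0 to 109 on the lamin A/C knockout arrays, against 857 to 4119 in control muscle. Emd, which encodes emerin, gave 153 to 465 in the emerin knockout and at least 587 on every other array. The muscle label was borne out by 14 mature fiber genes such as Ckm, whose signals summed to between 349732 and 350320 on the control day 0 arrays. Of the listed heart genes, Myh6 and Myl7 did not reach the minimum signal of 100 on 2 arrays, while Nppa did. RNA quality differed between groups. The ratio of the 3′ to the 5′ control probe set of Gapdh, which increases as RNA degrades, was 3.62 to 6.09 on the 3 emerin knockout day 3 arrays and 2.89, 1.40 and 5.30 on those of day 4, whereas no other array exceeded 1.64.

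Signals are the deposited MAS5 intensities, rescaled so that each array has a trimmed mean of 500. The brightest probe set stood for a gene, and differences are of log2(signal + 32), which understates changes of dim genes. A gene was called where limma gave a Benjamini-Hochberg adjusted p under 0.05 over 11164 genes. All 82 genes passed the minimum of 100 on at least 2 arrays, and 79 reached it on all 23. Those that did not were Cox6b2, Cox7c and Ndufaf7.

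After injection the respiratory chain and ATP synthase genes fell almost as a block. In control muscle on day 3, 73 of the 82 were lower than on day 0 and 2 were higher, where 14.2% of all genes tested were called lower and 20.1% higher. Their median change was -1.30 on the log2 scale, a 2.46-fold fall, against 0.08 over all genes tested. The arrays of the 2 days did not overlap for 79 of the 82, while 67.3% of all genes tested were free of overlap. On day 4, 73 were lower and 3 higher in control muscle (14.3% and 19.5% of all genes), with a median of -1.21.

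Both knockouts went the same way. In the emerin knockout, 73 were lower and 3 higher on day 3 than on day 0 (22.2% and 23.9% of all genes), and 71 were lower and 3 higher on day 4 (20.8% and 23.5%). In the lamin A/C knockout, 75 were lower and 2 higher on day 3 (19.6% and 23.4%), and 73 were lower and 2 higher on day 4 (18.2% and 21%). The medians were -1.47 and -1.28 in the emerin knockout and -1.31 and -1.09 in the lamin A/C knockout, where those of all genes tested lay between -0.08 and -0.06. RNA quality also differed between the emerin knockout days, with Gapdh ratios of 0.91 to 1.34 on day 0 and 3.62 to 6.09 on day 3. With that ratio as a covariate, Atp5d, Cox7a2l, Sdhc, Sdhd and Uqcrc2 lost their day 3 call, of 18 named genes called. Its part in the size of these falls was not tested. In all 6 comparisons of an injected group with its own day 0 group, 71 genes were lower, and Cox6a1 and Cox8a were higher. The other 9 were not called in at least one of them, and of these Cox6b2, Cox8c and Ndufaf7 were called in none.

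The fall was seen on every injected array. The median over the 82 genes, measured from the control day 0 mean, was between -0.09 and 0.02 on the 7 day 0 arrays. On day 3 it was -1.38 and -1.28 in control muscle, -1.42, -1.39 and -1.67 in the emerin knockout and -1.39, -1.30 and -1.34 in the lamin A/C knockout. On day 4 it was -1.22 and -1.17 in control muscle, -1.32, -1.24 and -1.38 in the emerin knockout and -1.15, -1.09 and -1.16 in the lamin A/C knockout. No injected array came near a day 0 array, and the arrays of the 3 genotypes lay close together on each day.

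**Figure D1:**
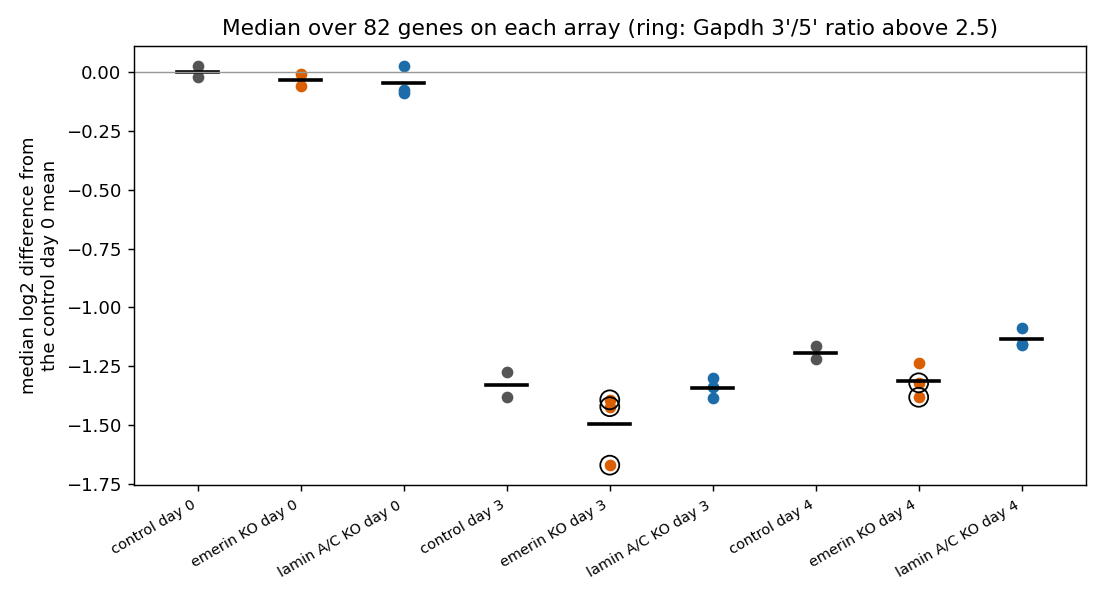
Median over the 82 genes of the log2 difference from the control day 0 mean (vertical axis), 1 point per array, with the 9 groups of genotype and day along the horizontal axis. Bars are group means and rings mark the 5 arrays with a Gapdh ratio above 2.5. Day 0 arrays lie between -0.09 and 0.02, and injected arrays between -1.67 and -1.09.

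The muscle changed in make-up at the same time. The counts below can be set against the 14.2% of all genes tested that were called lower and the 20.1% called higher. In control muscle on day 3, all 14 mature fiber genes were lower, with a median of -1.58, and their summed signal went down to between 103723 and 152508. Of 6 slow fiber genes 4 were lower and 1 higher, with a median of -2.78. Their sum went from between 57234 and 58513 to between 18317 and 23109. Among 4 adipocyte genes tested 1 was lower. All 7 genes of regenerating fibers rose, as did 13 of 14 macrophage genes and 4 of 5 neutrophil genes, while none of 5 endothelial genes and 2 of 7 fibroblast genes did. The macrophage sum went from between 5538 and 7890 on day 0 to between 49850 and 52163. In such whole muscle RNA, fewer mature fibers and less RNA per fiber cannot be told apart, and the part of the other cells in these falls was not tested.

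Complex I carries electrons in from NADH. In control muscle on day 3, 33 of its 34 genes were lower, with a median of -1.46. Ndufs7, an iron-sulfur subunit near the quinone site, gave 9394 and 8612 on day 0 and 1889 and 2599 on day 3, a change of -2.01 ± 0.17 (SE, adjusted p = 1.1e-08). Ndufb2, an accessory subunit of the membrane arm, gave 8434 and 7666 on day 0 and 2097 and 1987 on day 3, a change of -1.96 ± 0.16 (adjusted p = 5.24e-09). Both lay far below their day 0 arrays in each genotype: Ndufs7 did not exceed 3017 and Ndufb2 did not exceed 2906 on any of the 16 injected arrays. The exception in complex I was Ndufb1, at -0.40 ± 0.27 (adjusted p = 0.296). Of the 5 assembly factors, which help build complex I without staying in it, 3 were lower, and Ndufaf3 (-0.31 ± 0.23) and the dim Ndufaf7 (-0.22 ± 0.44) were not called.

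Complex II, which is also the succinate dehydrogenase of the tricarboxylic acid cycle, fell in all 4 genes, with a median of -1.47. Sdhb, its iron-sulfur subunit, gave 13144 and 12636 on day 0 and 3387 and 4697 on day 3 in control muscle, a change of -1.68 ± 0.16 (adjusted p = 3.67e-08). Sdha, the flavoprotein that oxidises succinate, changed least, by -1.36 ± 0.13. All 8 complex III genes were lower, with a median of -1.30. Uqcrfs1, the Rieske iron-sulfur protein, had the largest fall, from 8218 and 9043 to 2214 and 2861, or -1.76 ± 0.29 (adjusted p = 3.93e-05), and Uqcrb the smallest, -0.92 ± 0.16.

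Complex V, the ATP synthase, was lower in all 17 genes in each of the 6 comparisons, with a median of -1.13 in control muscle on day 3. Atp5g1, which encodes the ring subunit c, gave 11280 and 10702 on day 0 and 2511 and 3522 on day 3, a change of -1.87 ± 0.18 (adjusted p = 4.33e-08). Its paralog Atp5g2, whose mature subunit c is identical, changed least in the complex, by -0.63 ± 0.13 (adjusted p = 0.00042), and was not called when all its probe sets were averaged. Its other probe set, dim at a mean signal of 93.1, went the opposite way (0.56), so the size of its change is uncertain.

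Complex IV stood out by its spread. Of its 14 genes 8 were lower and 2 higher in control muscle on day 3, and changes ran from -4.09 to 1.27. Its median was -0.84, and -0.41 over the 8 genes outside the isoform pairs. Among these 8, Cox5a (-1.41 ± 0.16), Cox6c (-1.29 ± 0.15), Cox6b1 (-0.94 ± 0.18) and Cox5b (-0.74 ± 0.20) were lower, and these names were picked after their values were seen. The Cox5b value is that of the brightest of its 6 probe sets, and not all the others fell. Not called were Cox7a2l (0.40 ± 0.20), the testis isoforms Cox6b2 (0.10 ± 0.43) and Cox8c (0.42 ± 0.29), and Cox7c (-0.08 ± 0.45), whose probe set reached only 266. Cox7a2l was higher on day 4 in control muscle (0.63 ± 0.20, adjusted p = 0.0162) and on both days in the emerin knockout (0.63 and 0.84). Its other probe sets changed by -0.05 and -0.12 in control muscle on day 3, and its control day 4 call was lost with averaged probe sets, with median scaling and without any of 3 arrays, controls of day 0 and replicate 2 of day 4. In the emerin knockout the day 3 arrays overlapped those of day 0, and that call was lost with the Gapdh covariate, with only the compared groups and without day 0 replicate 2.

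**Figure D2:**
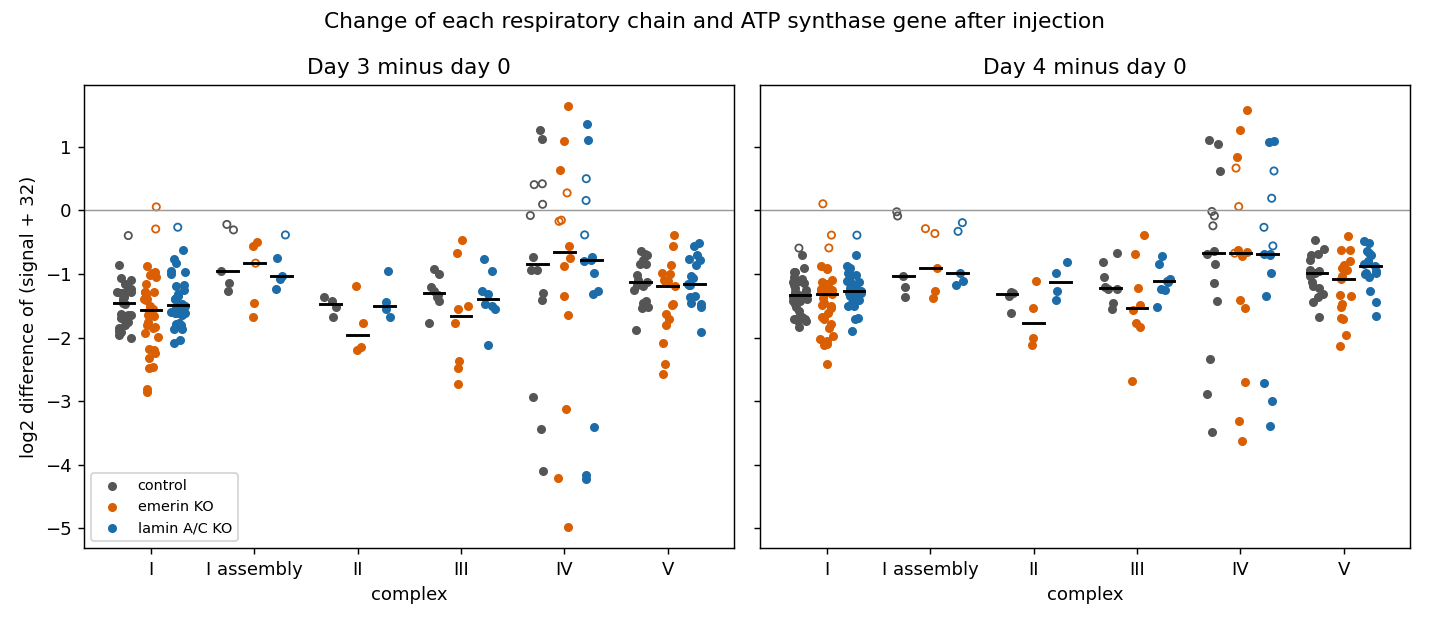
Log2 difference of (signal + 32) from day 0 for each of the 82 genes on day 3 (left) and day 4 (right), by complex along the horizontal axis and coloured by genotype. Filled points were called, open points were not, and bars are medians. Complexes I, II, III and V lie below 0 with few exceptions, while complex IV reaches from -4.98 to 1.64.

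The widest differences were between the muscle and the general isoforms of complex IV. The 3 muscle isoforms had the 3 largest falls of all 82 genes in control muscle on day 3: Cox7a1 by -4.09 ± 0.27 (17.1-fold, adjusted p = 2.29e-10), Cox8b by -3.44 ± 0.23 (10.9-fold, adjusted p = 2.34e-10) and Cox6a2 by -2.94 ± 0.29 (7.67-fold, adjusted p = 5.63e-08). They ranked 8, 20 and 58 from the lowest among the 11164 genes tested. The general isoforms did not follow. Cox6a1 rose by 1.12 ± 0.17 (2.17-fold, adjusted p = 2.05e-05) and Cox8a by 1.27 ± 0.18 (2.40-fold, adjusted p = 5.9e-06), while Cox7a2 was lower by -0.94 ± 0.15 (adjusted p = 3.79e-05).

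Cox6a2, the muscle isoform of subunit VIa, gave 17563 and 16815 on the control arrays of day 0, 21548 and 20801 in the emerin knockout and 18429, 16529 and 13693 in the lamin A/C knockout. On day 3 it gave 1622 and 3015, then 3245, 2819 and 1532, and 1271, 1475 and 1759 in the same order. On day 4 the signals were 3368 and 3358 in control muscle, 4149, 2657 and 3039 in the emerin knockout and 2337, 2776 and 2234 in the lamin A/C knockout. No injected array reached the lowest day 0 array in any genotype.

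Its general counterpart Cox6a1 moved in the opposite direction. It gave 3969 and 4223 in control muscle, 3767 and 3269 in the emerin knockout and 4091, 3830 and 3606 in the lamin A/C knockout on day 0. On day 3 the signals were 9114 and 8760, then 11648, 12891 and 8911, and 9700, 8890 and 11113. On day 4 they were 8160 and 9601, then 9897, 9495 and 12605, and 8284, 7646 and 8717. All 16 injected arrays lay above all 7 day 0 arrays, and a second Cox6a1 probe set rose too, by 1.83 in control muscle on day 3.

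Cox7a1, the muscle isoform of subunit VIIa, gave 5980 and 5058 in control muscle, 5603 and 3498 in the emerin knockout and 5894, 5167 and 4532 in the lamin A/C knockout on day 0. On day 3 it gave 272 and 314, then 216, 270 and 154, and 183, 233 and 347. On day 4 it gave 522 and 410, then 476, 458 and 337, and 432, 564 and 412. The 2 days of injected muscle scarcely overlapped, with day 4 above day 3. For the general isoform Cox7a2 the signals were 18020 and 17169, then 16533 and 15096, and 18696, 16739 and 15400 on day 0. They lay between 7329 and 10416 on day 3 and between 8790 and 11615 on day 4, so that this gene also fell, though by less than its muscle counterpart.

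Cox8b, the muscle isoform of subunit VIII, gave 13344 and 12365 in control muscle, 16853 and 16992 in the emerin knockout and 17859, 14180 and 13154 in the lamin A/C knockout on day 0. On day 3 it gave 913 and 1449, then 559, 427 and 538, and 802, 775 and 846. On day 4 it gave 1991 and 1470, then 1482, 1661 and 979, and 1699, 2100 and 1730. The emerin knockout arrays of day 3 were the lowest of all. The general isoform Cox8a gave 2173 and 2412, then 1919 and 2787, and 3186, 2453 and 2478 on day 0. It gave 4637 to 6308 on day 3 and 4396 to 6029 on day 4, above every day 0 array. A second Cox8a probe set rose as well, by 1.15 in control muscle on day 3, whereas another, with a mean signal of 97.3, went to -0.57. With probe sets averaged, the calls of Cox8a on day 4 in control muscle and on day 3 in the emerin knockout were lost.

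**Figure D3:**
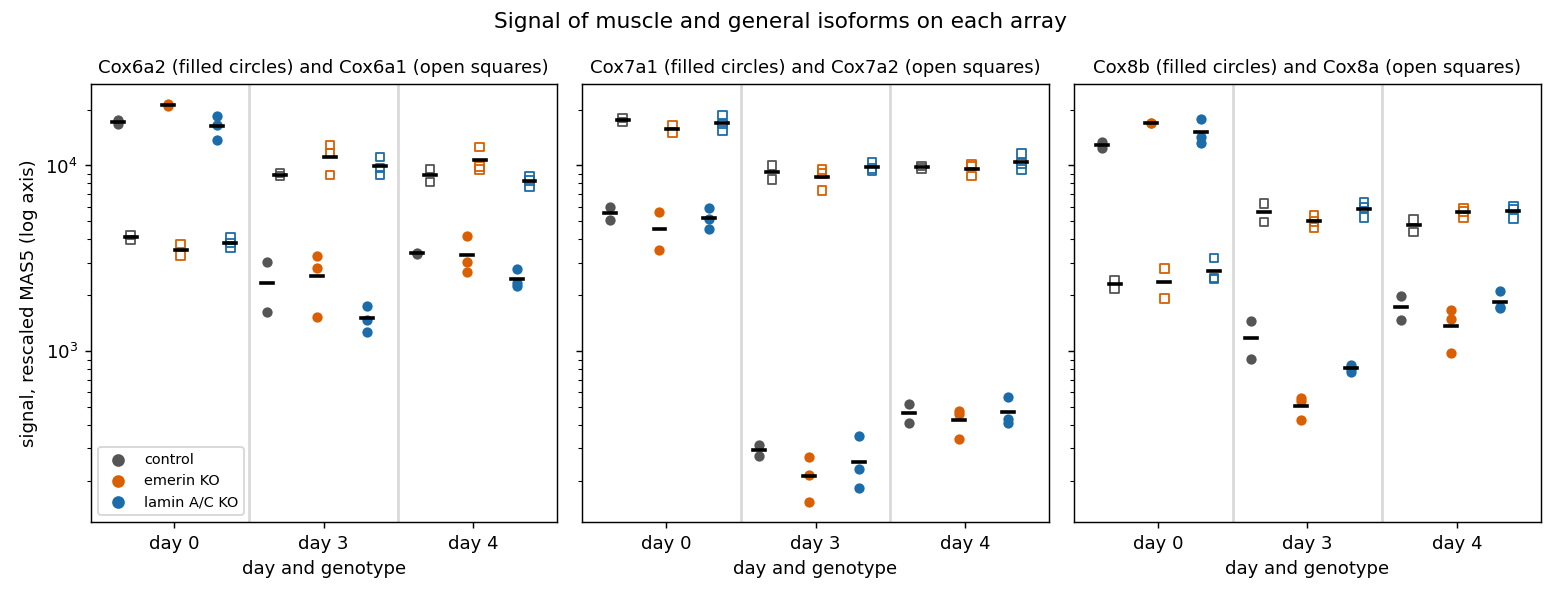
Rescaled MAS5 signal on a log axis for each muscle isoform (filled circles) and its general counterpart (open squares), 1 point per array, by day and, from left to right within a day, control, emerin knockout and lamin A/C knockout. Bars are group means. Cox6a2 and Cox8b go down while Cox6a1 and Cox8a go up, and Cox7a1 falls to between 154 and 564 on the injected arrays.

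Within each array the muscle isoform was set against its counterpart, as the log2 value of the first minus that of the second, which no scaling of an array can change beyond the added 32. Compared with day 0, and averaged over the genotypes, the difference moved by -4.19 for Cox6a2 and Cox6a1 (18.2-fold), by -2.98 for Cox7a1 and Cox7a2 (7.86-fold) and by -4.82 for Cox8b and Cox8a (28.3-fold). In an exact two-sided permutation test of day 0 against injected arrays within genotype, each gave p = 2.83e-05, the smallest its 35280 arrangements allow, which stayed so after adjustment over the 3 pairs. The direction was shared by all 3 genotypes, with values from -4.52 to -3.75, from -3.07 to -2.90 and from -5.48 to -4.32 for the 3 pairs.

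The genotypes were compared in the same way, within days. The Cox6a2 and Cox6a1 difference was lower in the lamin A/C knockout than in control muscle by -0.35 (exact permutation p = 0.03, adjusted p = 0.09). For Cox8b and Cox8a it was -0.24 (adjusted p = 0.126) and for Cox7a1 and Cox7a2 -0.14 (adjusted p = 0.235, exact permutation tests). None passed, but the Cox6a2 and the Cox8b differences did without control day 0 replicate 2 (-0.38 and -0.29, exact permutation, adjusted p = 0.045 and 0.04875) and without control day 4 replicate 2 (-0.39 and -0.35, adjusted p = 0.0375 for both, exact permutation). In the emerin knockout the differences from control were 0.01, -0.20 and -0.39 for Cox6a2, Cox7a1 and Cox8b against their counterparts (adjusted p = 0.967, 0.222 and 0.222, exact permutation tests). These are averages over days that went both ways for Cox6a2 (from -0.32 to 0.52) and Cox8b (from -0.99 to 0.38).

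Because the isoforms parted so clearly, the sequences before their start sites were read from RefSeq (GRCm38.p6), as the 250 bases upstream of the start in the direction of transcription. Of the 82 genes, 70 matched a RefSeq promoter window, which runs 250 bases before to 50 after the start, and Cox6a2 did not. The windows were searched on both strands for 3 motifs of factors known for nuclear-coded mitochondrial or muscle genes. The NRF1 motif, read as GCGCA and GCGC with any 1 base between them, occurred in 16 of 70 genes (22.9%), against 5.19% of 27025 genes. The ERR motif, TCAAGGTCA, occurred in Atp5g3 and Sdhd (2.86% against 0.466%), and a MEF2 motif in none (against 0.636%). Shown are the rising general isoform Cox6a1, at chr5:115348959-115349208 on the minus strand, and the falling muscle isoforms Cox7a1, at chr7:30183921-30184170 on the plus strand, and Cox8b, at chr7:140900447-140900696 on the minus strand, with NRF1 matches in capitals.
Cox6a1: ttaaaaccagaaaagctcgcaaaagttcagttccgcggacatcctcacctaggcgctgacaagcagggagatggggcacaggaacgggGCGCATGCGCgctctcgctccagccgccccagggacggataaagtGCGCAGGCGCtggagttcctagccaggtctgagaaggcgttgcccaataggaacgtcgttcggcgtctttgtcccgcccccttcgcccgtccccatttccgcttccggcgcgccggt
Cox7a1: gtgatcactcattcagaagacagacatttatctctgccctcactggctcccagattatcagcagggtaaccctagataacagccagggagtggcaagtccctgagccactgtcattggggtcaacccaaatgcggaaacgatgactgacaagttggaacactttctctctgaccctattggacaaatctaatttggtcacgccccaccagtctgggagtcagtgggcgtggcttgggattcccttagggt
Cox8b: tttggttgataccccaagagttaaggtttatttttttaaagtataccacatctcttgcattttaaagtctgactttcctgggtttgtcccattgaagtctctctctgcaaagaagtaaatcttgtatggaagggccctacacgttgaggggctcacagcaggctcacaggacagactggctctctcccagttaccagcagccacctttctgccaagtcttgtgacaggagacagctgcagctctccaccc
The 2 matches of Cox6a1 begin at positions -162 and -117 from its start. Cox7a1 and Cox8b held no match to any of the 3 motifs in this stretch and neither did Cox7a2 and the rising Cox8a. Of the 16 genes with an NRF1 match only Cox6a1 rose. The others, among them Sdha and Ndufs5, were lower in all 6 comparisons with day 0. A match describes letters only, since binding was not measured.

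From day 3 to day 4 few genes passed the test, and most differences lay above 0. In control muscle 62 of 82 were above 0 (75.6%, against 45.9% of all genes tested), with a median of 0.14, but limma called none of them, where 0.0448% of all genes were called, and 9 had an unadjusted p under 0.05. In the emerin knockout 69 were above 0 (84.1% against 51.2%), with a median of 0.15. Cox8b (1.36 ± 0.19, adjusted p = 0.000186) and Cox7a1 (0.91 ± 0.22, adjusted p = 0.042) were called higher, as were 0.958% of all genes. In the lamin A/C knockout 67 were above 0 (81.7% against 46.6%), with a median of 0.19. Cox8b (1.15 ± 0.19, adjusted p = 0.00184) and Atp5j, a stalk subunit of the ATP synthase (0.73 ± 0.19, adjusted p = 0.0451), were called higher there, as were 1.29% of all genes. In all 3 genotypes 50 genes were above 0 and 3 below.

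Cox8b had the highest and Cox7a1 the next highest of the 82 values in both knockouts. Cox7a1 came to 0.83 ± 0.22 in the lamin A/C knockout (adjusted p = 0.0501), and in control muscle Cox7a1, Cox6a2 and Cox8b had the 3 highest values of the 82, at 0.61, 0.60 and 0.56 (adjusted p = 1, 1 and 0.971). Cox6a2 was at 0.41 ± 0.23 in the emerin knockout (adjusted p = 0.549), where its arrays of the 2 days overlapped, and at 0.70 ± 0.23 in the lamin A/C knockout (adjusted p = 0.13). The within-array difference of each muscle isoform from its counterpart moved up by 0.47 to 1.20 in every genotype. The call of Cox8b was kept with each array left out in both knockouts, and with the Gapdh ratio as a covariate. Those of Cox7a1 and Atp5j were lost without any of 4 and 5 arrays, and also with that covariate. RNA quality differed between the days. In the lamin A/C knockout no day 3 array had a Gapdh ratio under 1.21, and no day 4 array one over 0.89. The emerin knockout days overlapped, since the lowest day 3 ratio, 3.62, lay under the highest of day 4, 5.30. The part of RNA quality in the size of these rises was not tested. The mature fiber sum moved too, with 127157 to 139616 on day 4 against 83839 to 100262 on day 3 in the emerin knockout and 121534 to 153200 against 92249 to 107867 in the lamin A/C knockout, while in control muscle the days overlapped (148439 to 171273 against 103723 to 152508), and its part in these changes was not tested.

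On day 0 few of these genes differed between the genotypes. Of the 82 genes, limma called Ndufa12, an accessory complex I subunit, higher in the emerin knockout (0.75 ± 0.14, adjusted p = 0.00361), where 1.23% of all genes were called higher and 2.03% lower. It gave 9574 and 10248 against 6248 and 5528 in control muscle. This call was lost with median scaling, with probe sets averaged, with only the compared groups fitted, and without either control or emerin knockout replicate 2 of day 0.

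On day 3, 20 of the 82 genes were lower in the emerin knockout than in control muscle and 5 higher, where 8.92% of all genes were called lower and 7.38% higher. As shares of the 82 these are 24.4% and 6.10%, and the median was -0.19 against 0.00 over all genes tested. By complex, 9 of 34 complex I, 2 of 4 complex II, 3 of 8 complex III, 1 of 14 complex IV and 5 of 17 complex V genes were lower. On day 4, 11 were lower (3.29% of all genes) and Ndufs5 was higher (2.58%). Of these 11, 9 were among the 20 of day 3, which is 81.8% of the first list and 45% of the second. RNA quality moved with these calls: every emerin knockout day 3 array had a Gapdh ratio above that of every control array, so that on day 3 genotype and RNA quality cannot be told apart. With the ratio as a covariate no gene was called on either day. Cell type markers also differed on day 3: 4 of 14 mature fiber genes were lower in the emerin knockout (median -0.36), 3 of 14 macrophage genes were higher, 3 of 7 fibroblast genes were lower, and of 7 regenerating fiber genes 3 were lower and 1 higher. The mature fiber sums did not overlap, at 83839 to 100262 against 103723 to 152508 in control muscle. Nor did the slow fiber sums, at 10638.5 to 15658.3 against 18317.4 to 23109.2, and the part of these cells in the differences was not tested.

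Ndufs4, an accessory subunit needed for stable complex I, had the largest difference on day 3, with 316, 337 and 411 in the emerin knockout against 972 and 1303 in control muscle (-1.59 ± 0.24, adjusted p = 0.000181). Its other probe sets differed by -0.04 and 0.19. Atp5j gave 1563, 1427 and 1142 against 3721 and 3565 (-1.39 ± 0.21, adjusted p = 0.000149). Uqcrc2, a core protein of complex III, gave 1452, 801 and 1082 against 2806 and 2345 (-1.22 ± 0.31, adjusted p = 0.0093). Sdhd, a membrane anchor of complex II, gave 1192, 1010 and 911 against 1763 and 3044 (-1.14 ± 0.30, adjusted p = 0.0108). With the Gapdh ratio as a covariate these last differences turned to 0.44 for Uqcrc2 and 0.24 for Sdhd, and with averaged probe sets the calls of Sdhd and Ndufs4 were lost. In complex IV only Cox8b was called, at -1.14 ± 0.21 (adjusted p = 0.000817). For each of these 5 genes the arrays of the genotypes did not overlap, as for 41.3% of all genes tested. The 5 genes that were higher were Ndufs5 (0.81 ± 0.13), Ndufa2 (0.65 ± 0.17), Ndufa12 (0.57 ± 0.13) and Ndufb10 (0.49 ± 0.14) of complex I and Atp5d (0.51 ± 0.13) of complex V. Without control day 3 replicate 2, 12 of the 25 differences were called.

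Day 4 holds an emerin knockout array of low Gapdh ratio, replicate 2 at 1.40. For Uqcrfs1 it gave 2351, against 1135 and 924 on the other emerin knockout arrays and 2910 and 2911 in control muscle. For Sdhd it gave 1872, against 1087 and 633, with 2186 and 2733 in control muscle. For Ndufs4 it gave 792, against 444 and 322, with 1164 and 1018 in control muscle, and for Atp5j 2794, against 2048 and 1609, with 4727 and 3231. Of all 11 genes lower on day 4, this array was the emerin knockout array nearest to control in 10, with Ndufb6 the exception, and it lay below both control arrays in all 11, which were chosen by that difference. Without the arrays of a ratio above 2.5 no gene was called on day 4, when 1 emerin knockout array was left. The count of 12 calls fell to 1 and 3 without control day 4 replicate 1 or 2, and to 2 and 0 without emerin knockout day 4 replicate 1 or 3.

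Ndufs5, an accessory complex I subunit, was the gene called higher on both days. It gave 1983, 2084 and 1723 in the emerin knockout on day 3 against 1053 and 1122 in control muscle, and 1900, 2082 and 2214 on day 4 against 1548 and 1202 (0.58 ± 0.13, adjusted p = 0.0124). On day 0 its signals were 5101 and 5090 against 4575 and 3758, a difference of 0.30 ± 0.14 (adjusted p = 0.318). The day 4 call was lost with the Gapdh covariate, without the arrays of high ratio, with median scaling, with only the compared groups, and without control replicate 2 or emerin knockout replicate 3 of day 4.

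In the lamin A/C knockout, limma called none of the 82 genes different from control on day 0, 3 or 4, where 0.896%, 0.0269% and 0.0448% of all genes were called. At an unadjusted p under 0.05 there were 4, 5 and 0. The medians were -0.06, -0.01 and 0.02. On day 3 the differences ran from -0.87 for the dim Cox7c to 0.35 for Ndufb7, and those of the muscle isoforms Cox6a2 and Cox8b were -0.56 ± 0.26 and -0.49 ± 0.21 (adjusted p = 0.669 and 0.613). The median standard error of these differences was 0.16, so that small differences cannot be told from 0 with these arrays.

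**Figure D4:**
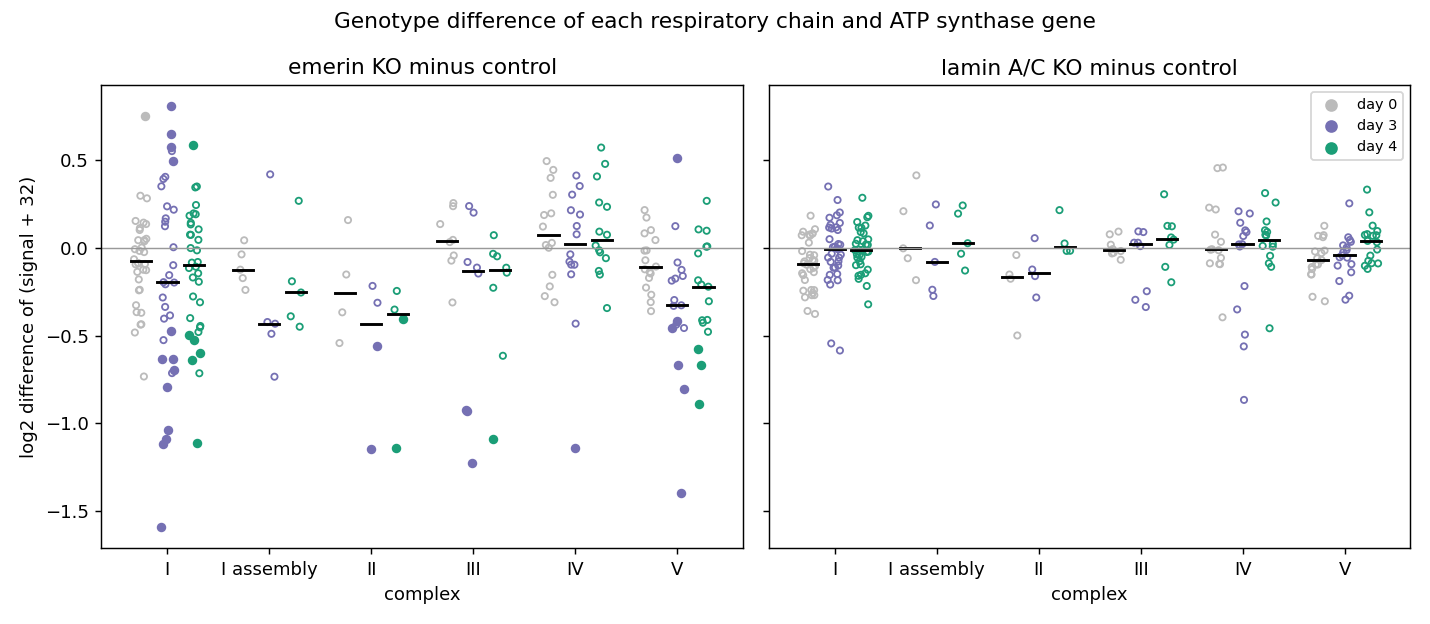
Log2 difference of (signal + 32) between knockout and control for each of the 82 genes, emerin knockout on the left and lamin A/C knockout on the right, by complex along the horizontal axis and coloured by day. Filled points were called and bars are medians. In the emerin knockout 1 gene is filled on day 0, 25 on day 3 and 12 on day 4, and in the lamin A/C knockout none.

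Whether the change from day 0 itself differed between a knockout and control was tested as an interaction. In the emerin knockout on day 3, 3 genes fell further than in control muscle and 1 differed the other way, where 1.22% and 1.42% of all genes were called in those directions. Cox8b differed by -1.54 ± 0.31 (adjusted p = 0.0117), Ndufa4 by -0.94 ± 0.25 (adjusted p = 0.0497) and Atp5c1, the central shaft subunit of the ATP synthase, by -0.89 ± 0.21 (adjusted p = 0.0291). Ndufb7, an accessory complex I subunit, differed by 1.28 ± 0.30 (adjusted p = 0.0232): it was lower on day 3 in control muscle (-1.23 ± 0.22) and at 0.06 ± 0.20 in the emerin knockout (adjusted p = 0.845). All 4 calls were lost with the Gapdh ratio as a covariate, with median scaling, and without control day 3 replicate 2. Those of Atp5c1 and Ndufa4 were also lost with the probe sets of all genes averaged, although Ndufa4 itself has only 1. limma called none of the 82 in the emerin knockout on day 4 (0.573% of all genes, with 5 of the 82 at an unadjusted p under 0.05) or in the lamin A/C knockout on day 3 (0.17%, with 3) or day 4 (0.206%, with 1).

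Other mitochondrial genes are given beside the subunits, for control muscle on day 3, where 14.2% of all genes tested were called lower and 20.1% higher. In control muscle on day 3, 15 of 16 genes of the tricarboxylic acid cycle and pyruvate dehydrogenase were lower, with a median of -1.49, among them the citrate synthase gene Cs (-1.74 ± 0.18). Of 9 electron carriers and further subunits outside the symbol rule, 7 were lower, including Cycs, which encodes cytochrome c (-1.74 ± 0.16), Cyc1 of complex III (-1.44 ± 0.19) and Cox4i1 of complex IV (-1.10 ± 0.12). Of 8 fusion, fission and cristae genes 7 were lower, led by Chchd10 (-2.32 ± 0.18). The mitochondrial ribosome moved less: 32 of 74 genes were lower and none higher, with a median of -0.46, and of 21 assembly factors for other complexes 8 were lower, with a median of -0.49. None of these lists is independent of earlier results on these arrays.

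Of 11 genes of adenine nucleotide and phosphate transport and creatine kinases 7 were lower and 2 higher. Slc25a4, the adenine nucleotide carrier of heart and muscle, was lower (-1.67 ± 0.17, adjusted p = 9.25e-08), while Slc25a5, its counterpart in dividing cells, was higher (1.45 ± 0.25, adjusted p = 8.41e-05). Ckmt2, the mitochondrial creatine kinase of striated muscle, was lower (-3.64 ± 0.35, adjusted p = 5.32e-08), and Ckb, the brain-type cytosolic creatine kinase, was higher (1.56 ± 0.19, adjusted p = 1.17e-06). Ckmt1, the other mitochondrial creatine kinase, was at -0.28 ± 0.37 (adjusted p = 0.628). Ckm, the muscle-type cytosolic enzyme, was lower (-1.43 ± 0.22, adjusted p = 1.78e-05). These names were picked from the 11 after their values were seen. Slc25a3, Vdac1, Vdac2, Vdac3 and Ucp3 of the same list are not given. Among 15 regulators of mitochondrial genes 3 were lower and 2 higher, shares near those of all genes tested (14.2% and 20.1%). Esrra, a nuclear receptor that drives oxidative genes, changed by -1.61 ± 0.20 (adjusted p = 9.61e-07), its coactivator Ppargc1a by -1.60 ± 0.30 (adjusted p = 0.000188) and Yy1 by 0.82 ± 0.15 (adjusted p = 0.000211).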

How the data were processed

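Each of 23 arrays (Affymetrix, 22690 probe sets) was deposited as linear signal intensity; MAS5 is named in the submitters' processing notes, and chip files were not used here. The authors' intensity values had trimmed means between 150.04 and 150.06 and were rescaled to 500. No depth applies: the number of arrays limits the precision. Names came from the platform annotation, using 20380 probe sets with 1 symbol; 691 with several and 1555 with none were left out. limma 3.58.1 (R 4.3.3) with an intensity trend was fitted over 9 groups (14 residual degrees of freedom, 19 contrasts), with Benjamini-Hochberg adjustment per contrast. The fit and the permutation test were tested on simulated data. The 82 genes and all lists were chosen with earlier results of these data known. Named are the 6 paired isoforms; per complex, the 2 called genes with the largest falls and the gene changing least or rising; otherwise up to 3 called genes per complex or list; genes not called in control muscle on day 3; and Emd and Lmna. Not all of these are printed, and some names outside this rule were picked after their values were seen. Alternatives were other scalings, pseudocounts of 1 and 100, no filter, averaged probe sets, no trend, a replicate block, only the compared groups, the Gapdh ratio as covariate or limit, and leaving out each array.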

Additional observations from a re-analysis of the deposited data

Results flagged for a closer look

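In 4 of the 82 genes the change from day 0 to day 3 differed between the emerin knockout and control muscle (limma interaction term, adjusted p under 0.05). Cox8b, the muscle isoform of complex IV subunit VIII, differed by -1.54: its mean signal was 12855 on day 0 and 1181 on day 3 in control muscle, and 16922 and 508 in the emerin knockout. Ndufa4 differed by -0.94, with 10558 and 4548 in control muscle and 9882 and 2191 in the emerin knockout. Atp5c1 differed by -0.89, with 16808 and 7382 in control muscle and 17757 and 4172 in the emerin knockout. Ndufb7 differed by 1.28, with 9172 and 3914 in control muscle, while in the emerin knockout its day 0 arrays gave 7342 and 4106 and its day 3 arrays 6029, 6772 and 4552. A second Ndufb7 probe set had the same direction between the genotypes on day 3, at 0.42. That value covers day 3 alone, while the interaction also rests on day 0, where the first probe set was lower in the emerin knockout. Atp5c1 also has 2 probe sets, and its call was lost when they were averaged. Ndufa4 has only 1 probe set, and its call, at a limma adjusted p of 0.0497, was lost in that fit too. The emerin knockout day 3 arrays had Gapdh ratios of 3.62 to 6.09, and with that ratio as a covariate none of the 4 was called.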

How the results depend on the processing

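The counts of genes that changed from day 0 kept within 1.5 times their value under every alternative run, and with 1 array left out they ran from 70 to 77. The 3 isoform pair changes after injection kept their direction and call throughout, ranging over single arrays left out from -4.24 to -4.10, from -3.07 to -2.88 and from -4.91 to -4.74. Median scaling shifted the median of all genes by over 0.1 in 6 of 19 contrasts, from -0.12 to 0.18, and quantile normalization in none. Genotype and day 4 against day 3 counts depended on settings, and the cause was not tested. The 25 calls of emerin knockout against control on day 3 became 16 with median scaling, 16 with only the compared groups and 0 with the Gapdh covariate, under which Ndufa2 (-0.051), Ndufb10 (-0.012), Sdhd (0.24), Uqcrc2 (0.44) and Uqcrfs1 (0.37) turned their sign; single arrays left out gave 12 to 29. The 12 calls on day 4 became 2 with median scaling, 5 without the trend, 0 with only the compared groups, 0 with the covariate and 0 without arrays of a high Gapdh ratio, and 0 to 18 with single arrays left out. The single call on day 0 became 2 with quantile normalization (1 higher and 1 lower), and 0 with median scaling, averaged probe sets or only the compared groups, and 0 to 3 with single arrays left out. The 4 emerin knockout interactions on day 3 became 7 with quantile normalization, 0 with median scaling, 2 with averaged probe sets, 1 without the trend, 1 with only the compared groups and 0 with the covariate, and 0 to 6 with single arrays left out; those of day 4 ran from 0 to 1. For day 4 against day 3, the 2 emerin knockout calls became 1 with quantile normalization, median scaling, a pseudocount of 100, no filter, no trend, only the compared groups or the covariate, and 1 to 5 with single arrays left out. The 2 lamin A/C knockout calls became 4 with quantile normalization or only the compared groups, 7 without arrays of a high Gapdh ratio, and 1 with median scaling, a pseudocount of 1, no filter, no trend or the covariate, and 1 to 3 with single arrays left out. Lamin A/C knockout pair differences from control ranged from -0.51 to -0.20 (Cox6a2 and Cox6a1) and from -0.35 to -0.14 (Cox8b and Cox8a) with single arrays left out. Replicate numbers gave no clear pairing of the arrays. The 82 same-number pairs of arrays had a median correlation of 0.02, against -0.02 for different numbers. They ran from -0.30 to 0.39, with 26 over 0.1, and 11 of 23 arrays correlated best with their own number. These values cannot exclude that some arrays were paired. With a replicate block the 12 day 4 calls of emerin knockout against control became 7 and no other count moved as far. The emerin knockout day 3 comparison had no arrays left under the Gapdh ratio limit and was not run. Among named genes, 139 values lost a call, 5 gained one and 2651 kept their side under the alternatives that keep every array or drop those of high ratio, and with single arrays left out 102 lost one, 5 gained one and 1217 kept it. Signals near the minimum of 100 limit what can be read for Cox6b2, Cox7c and Ndufaf7.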
